A study of Homo sapiens with 12 samples.

Results

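The subject here is the interaction of MAP kinase inhibition and histone deacetylase (HDAC) inhibition in the established human melanoma line A2058, measured for all 14580 genes that could be named on all 12 expression arrays of the series. The cells were grown in DMEM with serum and treated for 24 h in 4 groups of 3 arrays. The DMSO group received the solvent. The DT group received dabrafenib (100 nM), a RAF kinase inhibitor, with trametinib (10 nM), a MEK inhibitor. The E group received entinostat (1 µM), an inhibitor of class I HDACs, and the DTE group received all 3 agents at those doses. For each gene the interaction is (DTE minus DT) minus (E minus DMSO) in log2 intensity, so that 0 means that the fold changes of the separate treatments multiply in the combination. A positive value places DTE above that additive expectation and a negative value places it below.

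In melanoma cells with an activated BRAF kinase, RAF and MEK pass the growth signal to ERK, which switches on immediate early genes, AP-1 factors, cyclin D1 and its own feedback inhibitors. ERK signalling also holds down the pigment cell programme, which the transcription factors MITF and SOX10 drive. Class I HDACs remove acetyl groups from histones, and their inhibition raises many genes that are otherwise silent and lowers others.

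The arrays are called biological replicates in their titles but technical ones in the design text of the series, so the p-values below measure only the spread between these arrays. Replicate arrays of a group correlated at 0.9897 to 0.9949 over genes. The median log2 level per group was lowest in DT (4.48) and highest in E (4.88), and the same contrast of the 4 medians was -0.02. Of 8 melanocytic markers 7 were measured, and all 7 lay above the lower quartile of genes in every group. Markers of other cell types were mixed. KRT5 (epithelium), DCN (fibroblasts), CD14 (blood cells) and VWF (endothelium) lay below it in all 4, and EPCAM in DMSO. The other measured markers, KRT8, KRT14, KRT18, KRT19, CLDN4, LUM, THY1, CD68, LYZ, KDR and CLDN5, lay above it in every group. The log2 of the summed fibroblast markers DCN, LUM and THY1 ranged from 7.38 to 7.59 in DMSO and from 8.78 to 9.23 in DTE, and no fibroblast, epithelial, blood or endothelial marker was called for the interaction. The part of these markers in the results was not tested. In such bulk samples fewer cells of a kind and less RNA per cell cannot be told apart.

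Few genes in the combination passed the threshold for a departure from the level that the separate treatments predicted. The interaction passed an adjusted p of 0.05 (limma's moderated test, Benjamini-Hochberg over all genes, "called" below) for 151 of 14580 genes (1.04%). Of these, 82 lay above additivity (0.562% of all genes) and 69 below it (0.473%), and 40 and 33 of them departed at least 2-fold (0.274% and 0.226%). The number of calls depended on the processing. After quantile normalization 174 genes were called above additivity and 140 below, and after median centring 160 and 107. Entinostat alone changed 2341 genes (16.1%), raising 12.5% of all genes and lowering 3.54%. On top of dabrafenib and trametinib it changed 2756 (18.9%), raising 13.8% and lowering 5.09%. Dabrafenib and trametinib changed 3985 genes (27.3%) without entinostat, raising 3.23% and lowering 24.1%. With entinostat they changed 3574 (24.5%), raising 2.08% and lowering 22.4%. The median over all genes was -0.165 for DT minus DMSO and 0.072 for E minus DMSO. Apart from those alternatives no further normalization was applied, and the counts of the separate effects were not redone under other normalizations. The part of a shift between arrays in these counts was not tested.

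The few calls do not by themselves show that the other genes were additive, since the interaction has a median standard error of 0.194 against 0.138 for a difference of 2 groups. The 95% interval of the interaction lay wholly inside a 2-fold departure for 13608 genes (93.3%). For 822 genes (5.64%) it was neither called nor confined to that range. A 2-fold range is wide beside the separate effects. In size, 95% of genes had E minus DMSO under 0.744 and DT minus DMSO under 0.84. An interval inside the range therefore does not show additivity. At the other end, the interval lay wholly beyond 2-fold for 12 genes. These were SMAGP, CTLA4, DKK1, SH3TC2, PMP2 and LRP2 above additivity, and TP53INP2, BCL2A1, RAP1GAP, UNC13A, EDNRB and TMEM156 below it. An unadjusted p under 0.05 was found for 1683 genes.

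Across all genes the entinostat effect with and without dabrafenib and trametinib, which share no array, had a Pearson r of 0.685 (n = 14580 genes) and a slope of 0.747. For the dabrafenib and trametinib effect with and without entinostat, r was 0.701 and the slope 0.608. Genes within an array are not independent, so these are descriptions.

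**Figure D1:**
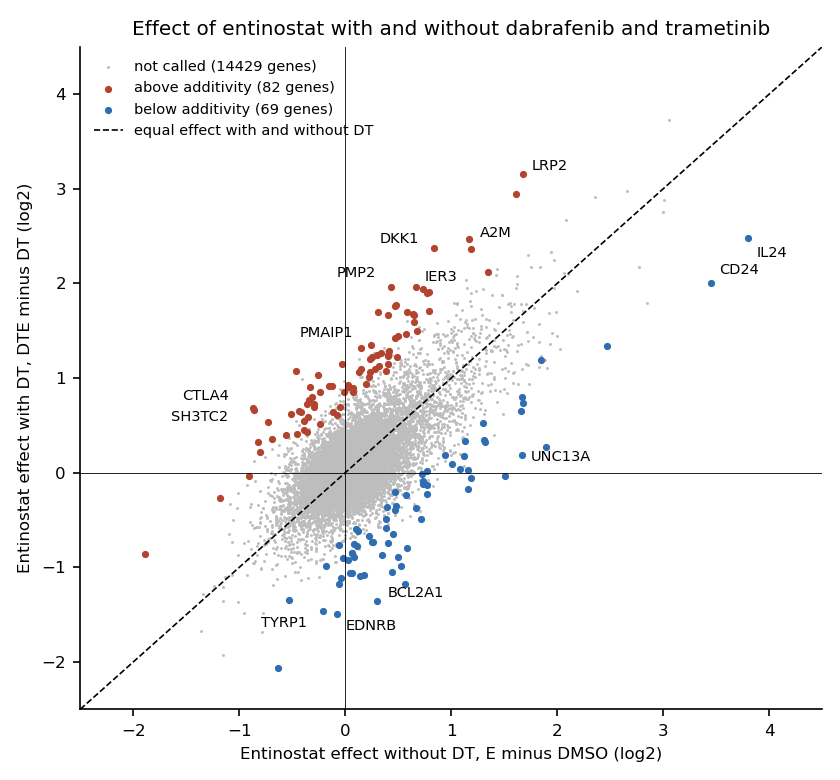
Entinostat effect without DT (E minus DMSO, x axis) against the effect with DT (DTE minus DT, y axis), both in log2 units; each point is 1 gene, and the dashed line marks equal effects. The 82 genes above additivity lie above the line and the 69 below additivity lie under it, while the other 14429 genes spread around it.

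The genes above additivity were mainly genes that dabrafenib and trametinib lowered and that entinostat raised again. DT was called lower than DMSO for 67 of the 82 (24.1% of all genes were). The DT and DMSO arrays enter both this difference and the interaction, so the share is a description. Entinostat raised 41 of the 82 with dabrafenib and trametinib but was not called without them. A further 25 rose both ways and rose more with the kinase inhibitors, and for 10 entinostat lowered the gene in otherwise untreated cells and raised it in inhibited cells. Entinostat was called lower without DT and not called with it for the 5 genes AMIGO2, CTHRC1, LPXN, RHOJ and CTH, and lowered PRR7-AS1 less with DT than without. Seen from the other treatment, the fall under dabrafenib and trametinib was called both ways and was smaller with entinostat for 34 of the 82, and was called only without entinostat for 28. These classes were counted among called genes only, so no share of all genes stands beside them.

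The genes below additivity were mainly genes that dabrafenib and trametinib raised. DT was called higher than DMSO for 49 of the 69, against 3.23% of all genes. Both separate treatments pointed up for 51 of the 69, as they did for 2809 of all 14580 genes. The arrays of these separate effects also enter the interaction, so these shares are descriptions. Entinostat lowered 28 of the 69 on top of dabrafenib and trametinib without being called on its own. For 24 it raised the gene in otherwise untreated cells and was not called in inhibited cells. For 8 the rise was smaller with the kinase inhibitors, for 7 it turned into a fall, and GALNT3 and MAP3K11 fell both ways and more with them. Such classes were again counted among called genes only.

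Levels beyond those of every other group were a minority among these genes. All 3 DTE arrays lay above the other 9 for 18 of the 82 genes above additivity, and for 256 of all genes (1.76%). They lay below the other 9 for 9 of the 69 genes below additivity, and for 810 of all genes (5.56%). The same arrays gave the calls, so these shares are descriptions.

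**Figure D2:**
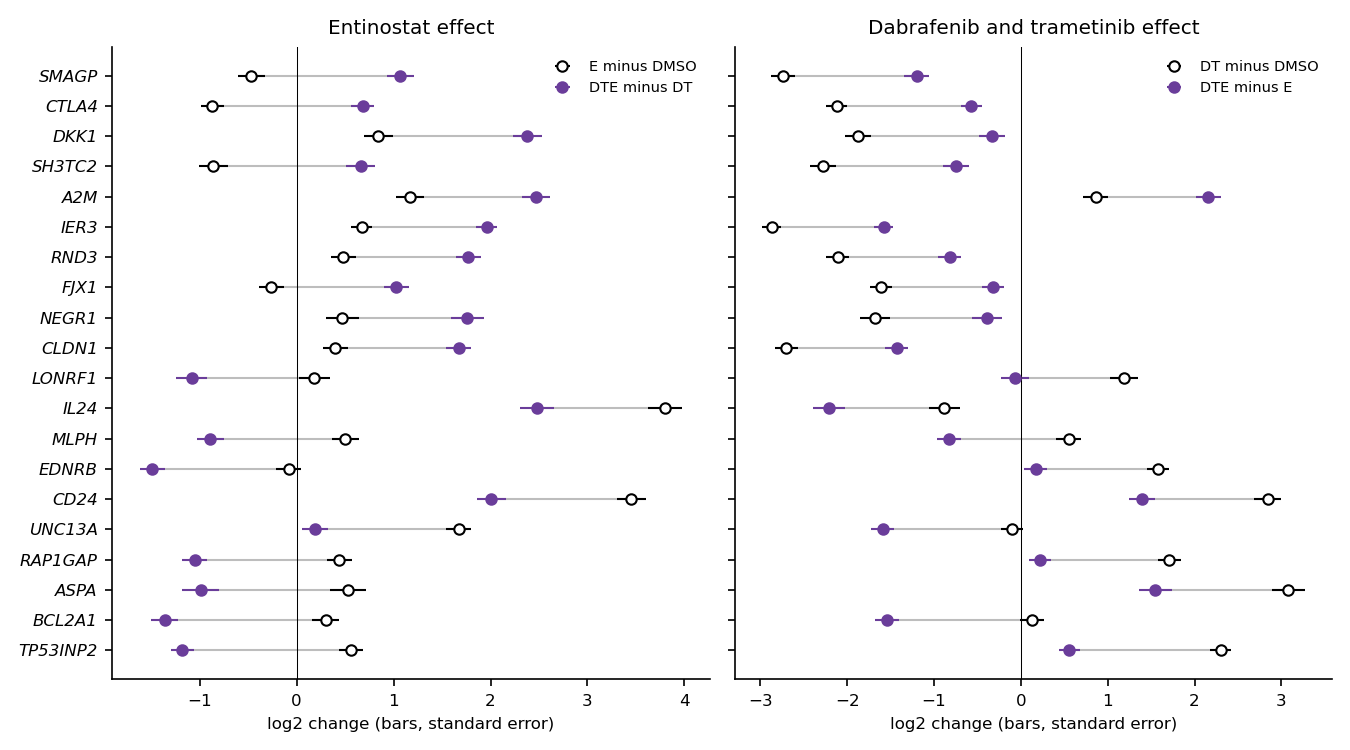
Effects of entinostat (left) and of dabrafenib and trametinib (right) on the 10 largest departures each way among genes with no dim group mean, without (open) and with (filled) the other treatment, in log2 units with standard errors of the limma fit. SMAGP to CLDN1 lie above additivity (1.55 to 1.27) and LONRF1 to TP53INP2 below it (-1.26 to -1.74).

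The genes above additivity included members of the WNT and NOTCH lists. DKK1, a secreted antagonist of WNT receptors, read 7.51, 7.60 and 7.72 in DMSO, 5.44, 5.75 and 6.04 in DT, 8.24, 8.57 and 8.56 in E, and 8.11, 8.09 and 8.19 in DTE. The DTE arrays thus stood above all DMSO and DT arrays and just under the E arrays, where additivity would place them at 6.59. The interaction was 1.54 (SE 0.21, adjusted p = 0.00098), and the fall of 1.87 under dabrafenib and trametinib alone became a difference of -0.33 in the presence of entinostat (adjusted p = 0.104). The call of DKK1 was lost on the linear scale, where additivity means DT plus E minus DMSO in intensity (adjusted p = 0.263).

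JAG1, a ligand of NOTCH receptors, read 9.93, 9.98 and 9.73 in DMSO, 7.94, 8.10 and 7.94 in DT, 10.51, 10.45 and 10.42 in E, and 9.55, 9.69 and 9.83 in DTE. The DTE arrays overlapped the DMSO arrays, and the interaction was 1.11 (SE 0.17, adjusted p = 0.00215, or 0.745 on the linear scale). HEY1, a transcriptional repressor that NOTCH signalling induces, read 6.59, 6.80 and 6.83 in DMSO, 4.37, 4.67 and 4.33 in DT, 6.19, 6.29 and 6.22 in E, and 4.92, 4.86 and 5.46 in DTE. Entinostat lowered HEY1 by itself (-0.51, adjusted p = 0.0271) and raised it in inhibited cells (0.62, adjusted p = 0.00609), with an interaction of 1.13 (SE 0.21, adjusted p = 0.011). The DTE arrays of HEY1 stayed below all E and DMSO arrays. JAG1 and HEY1 were the called members among 18 measured NOTCH genes, whose median was 0.00, and DKK1 and SFRP1, a secreted WNT antagonist, those among 17 WNT genes, whose median was 0.17 (0.562% of all genes were called above additivity).

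SMAGP, a small transmembrane glycoprotein found at cell junctions, read 8.62, 8.48 and 8.75 in DMSO, 6.09, 5.85 and 5.66 in DT, 8.29, 7.90 and 8.23 in E, and 6.91, 6.85 and 7.07 in DTE. No 2 groups overlapped, and DTE stood between DT and E. The interaction was 1.55 (SE 0.20, adjusted p = 0.00061), a 2.92-fold departure. Entinostat lowered SMAGP alone (-0.47, adjusted p = 0.0264) and raised it with dabrafenib and trametinib (1.07, adjusted p = 2.1e-05).

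CLDN1, a tight junction protein, read 7.94, 8.03 and 7.86 in DMSO, 5.05, 5.41 and 5.28 in DT, 8.42, 8.26 and 8.35 in E, and 6.90, 6.73 and 7.11 in DTE, with an interaction of 1.27 (SE 0.18, adjusted p = 0.00179). RND3, a small GTPase that restrains actin contraction, read 7.2, 7.41 and 7.41 in DMSO, 5.12, 5.17 and 5.41 in DT, 7.73, 8.02 and 7.72 in E, and 6.92, 6.91 and 7.18 in DTE, with an interaction of 1.29 (SE 0.19, adjusted p = 0.00179). In both genes the DTE arrays lay above all DT arrays and below all DMSO arrays. NEGR1, a neuronal adhesion protein anchored in the membrane by a lipid, had an interaction of 1.28 (SE 0.25, adjusted p = 0.0132). The call of NEGR1 was lost when 16 was added to each intensity before taking logarithms (adjusted p = 0.0753). On the linear scale the calls of CLDN1 (0.954), RND3 (0.613) and NEGR1 (0.392) were lost, and no group mean of these 4 genes was dim, that is, below the lower quartile of genes in its group.

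A2M, a secreted protease inhibitor, differed in that both treatments raised it. It read 4.54, 5.01 and 4.92 in DMSO, 5.62, 5.80 and 5.65 in DT, 6.02, 5.94 and 6.02 in E, and 7.94, 8.32 and 8.20 in DTE. Every DTE array exceeded every other array by more than 1 log2 unit, whereas additivity would give 6.86. The interaction was 1.30 (SE 0.19, adjusted p = 0.00215), and DTE exceeded DMSO by 3.33.

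CTLA4, known as an inhibitory receptor of T cells, read 5.23, 5.30 and 5.49 in DMSO, 3.34, 3.11 and 3.21 in DT, 4.37, 4.59 and 4.43 in E, and 3.82, 3.82 and 4.04 in DTE. Each treatment alone lowered it, no groups overlapped, and the additive expectation of 2.35 lay below every group. The interaction of 1.55 (SE 0.17, adjusted p = 0.00028) thus came with a level in DTE that was still 1.44 below DMSO (difference -1.44, adjusted p = 9.6e-08). SH3TC2, an endosomal protein needed for myelination by Schwann cells, had the same form, with 5.25, 5.45 and 4.88 in DMSO, 2.83, 3.17 and 2.75 in DT, 4.28, 4.42 and 4.30 in E, and 3.52, 3.55 and 3.67 in DTE, and an interaction of 1.53 (SE 0.21, adjusted p = 0.0011). For both genes the expectation falls beneath the lower quartile of genes in DTE (2.99), a level not shown to lie above background.

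Transcription factors above additivity were picked here after their values were seen. AHR, the aryl hydrocarbon receptor, read 10.01, 10.10 and 9.98 in DMSO, 8.57, 8.79 and 8.67 in DT, 10.76, 10.75 and 10.88 in E, and 10.47, 10.55 and 10.71 in DTE. Its fall of 1.35 under dabrafenib and trametinib was -0.22 in the presence of entinostat (adjusted p = 0.171), and its interaction was 1.13 (SE 0.16, adjusted p = 0.00179, or 0.343 on the linear scale). SOX2, a factor of neural progenitors and stem cells, read 7.0, 6.91 and 6.92 in DMSO, 7.14, 7.15 and 7.35 in DT, 5.92, 6.45 and 6.28 in E, and 7.68, 7.70 and 7.87 in DTE. The DTE arrays of SOX2 were the highest and the E arrays the lowest, with no overlap, and the interaction was 1.27 (SE 0.19, adjusted p = 0.00215). TBX3, a T-box repressor, had an interaction of 1.06 (SE 0.18, adjusted p = 0.00515), with entinostat effects of -0.42 alone and 0.64 with the kinase inhibitors.

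**Figure D3:**
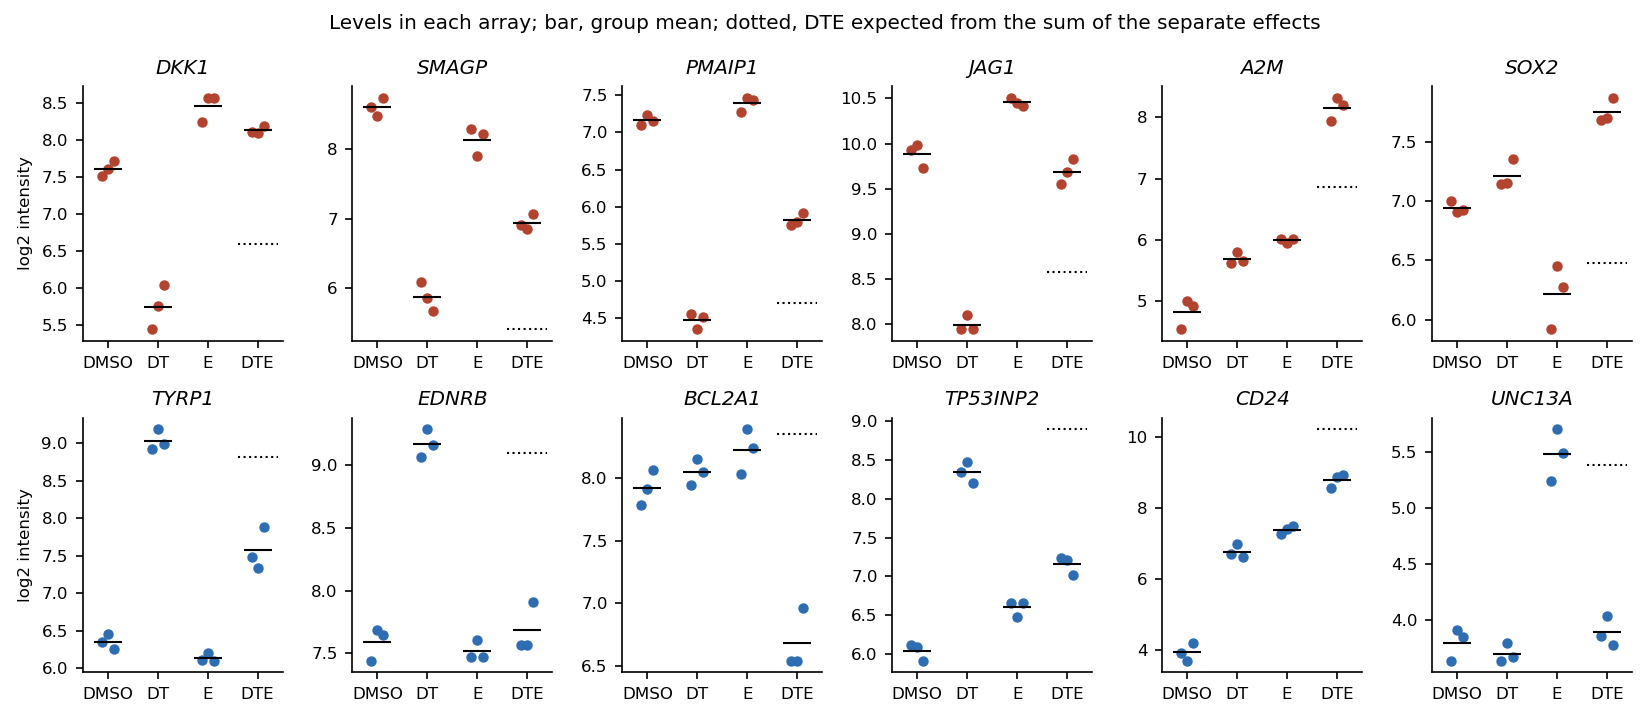
Log2 intensity of 12 genes in each of the 3 arrays per group (points), with the group mean (bar) and the DTE level expected from additivity (dotted). The upper 6 genes stand above the dotted level in DTE (DKK1 at 8.09 to 8.19 against 6.59) and the lower 6 stand below it (TP53INP2 at 7.02 to 7.24 against 8.90).

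Genes of the pigment cell programme lay below additivity. Of 15 measured genes of melanocyte differentiation, 5 were called below additivity (33.3%, against 0.473% of all genes) and 0 above, all 15 values were below 0, and their median was -0.54, against -0.002 over all genes, of which 49.6% were above 0. The median was -0.60 after quantile normalization. Dabrafenib and trametinib raised 8 of the 15 (3.23% of all genes) and lowered 0 (24.1%). Entinostat on top of them lowered 12 (5.09% of all genes) and raised 0 (13.8%), whereas entinostat alone lowered 3 (3.54%) and raised 2 (12.5%).

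TYRP1, a melanosomal enzyme of pigment synthesis, read 6.35, 6.46 and 6.26 in DMSO, 8.93, 9.19 and 8.99 in DT, 6.11, 6.21 and 6.10 in E, and 7.49, 7.34 and 7.89 in DTE. The DTE arrays lay between the DMSO and DT arrays without overlap, against an additive expectation of 8.82. The interaction was -1.24 (SE 0.19, adjusted p = 0.00309), with an entinostat effect of -0.21 alone (adjusted p = 0.349) and -1.46 on top of dabrafenib and trametinib (adjusted p = 5.5e-07).

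EDNRB, the endothelin receptor of the melanocyte lineage, read 7.44, 7.69 and 7.65 in DMSO, 9.07, 9.29 and 9.16 in DT, 7.47, 7.61 and 7.47 in E, and 7.57, 7.57 and 7.91 in DTE. The rise of 1.58 under dabrafenib and trametinib was 0.17 with entinostat (adjusted p = 0.346), and the DTE arrays overlapped the DMSO and E arrays. Its interaction was -1.41 (SE 0.18, adjusted p = 0.00061).

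BCL2A1, an anti-apoptotic BCL2 family member that MITF is known to induce, read 7.78, 7.91 and 8.06 in DMSO, 7.94, 8.15 and 8.05 in DT, 8.03, 8.39 and 8.24 in E, and 6.54, 6.54 and 6.96 in DTE. The 3 groups other than DTE overlapped, and neither treatment alone was called (0.13, adjusted p = 0.564, and 0.30, adjusted p = 0.168). DTE stood 1.24 below DMSO (difference -1.24, adjusted p = 3.1e-06), below every other array. The interaction was -1.67 (SE 0.20, adjusted p = 0.00049).

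MLPH, melanophilin, which links melanosomes to the actin motor, read 5.14, 5.49 and 5.11 in DMSO, 5.73, 5.81 and 5.87 in DT, 5.63, 5.85 and 5.76 in E, and 4.6, 5.0 and 5.14 in DTE. Each treatment raised MLPH alone and lowered it on top of the other, and the interaction was -1.39 (SE 0.20, adjusted p = 0.00193). Its DTE arrays overlapped the DMSO arrays and lay below all others. PMEL, the structural protein of melanosome fibrils, had an interaction of -0.74 (SE 0.16, adjusted p = 0.0345), with 8.81, 8.80 and 8.77 in DMSO, 9.76, 9.93 and 9.94 in DT, 8.96, 8.75 and 9.04 in E, and 9.34, 9.23 and 9.19 in DTE. The PMEL arrays of DTE lay between those of DT and the other groups.

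Other members of the programme missed the threshold, which does not show that they were additive. MITF, the lineage's transcription factor, read 6.28, 6.67 and 6.18 in DMSO, 7.62, 7.95 and 7.62 in DT, 5.68, 5.66 and 5.76 in E, and 6.83, 6.97 and 7.27 in DTE. Dabrafenib and trametinib raised MITF by 1.36 alone and 1.32 with entinostat, and entinostat lowered it in both settings (-0.68 and -0.71), so that its interaction was -0.03 (95% interval -0.48 to 0.41). TYR, tyrosinase, had an interaction of -0.14 (-0.54 to 0.25). SOX10 stood at -0.54 (-0.90 to -0.18, adjusted p = 0.165). MLANA, a melanosomal membrane protein, stood at -0.71 (adjusted p = 0.0791) and was called after quantile normalization (-0.73, adjusted p = 0.0431), after the filter on dim genes (0.0336), with 16 added to each intensity (0.0301) and on the linear scale (0.0157).

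**Figure D4:**
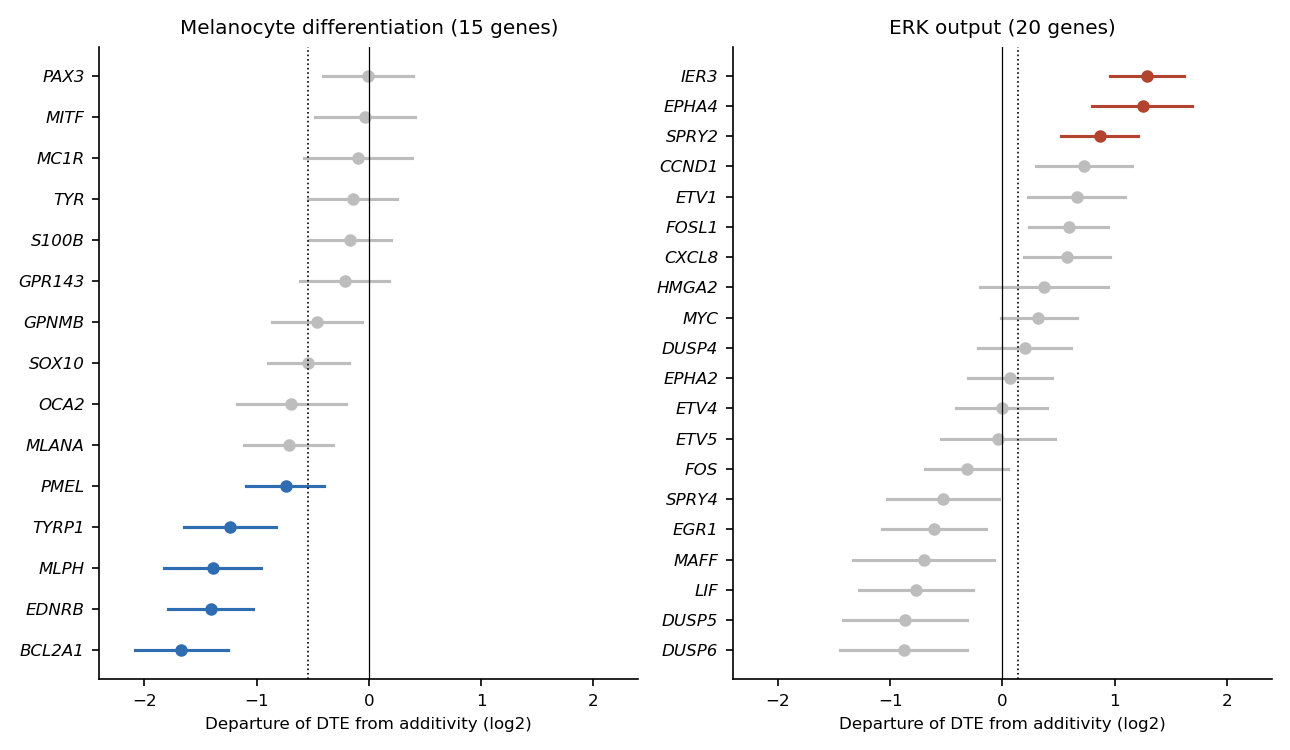
Interaction (log2) with its 95% interval for the measured genes of melanocyte differentiation (left) and ERK output (right); coloured genes were called, grey ones were not, and the dotted line is the list's median. The 15 genes on the left are all below 0 with a median of -0.54, while the 20 on the right run from -0.88 to 1.29.

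The start site regions of called melanocyte genes are shown because a sequence word that MITF is known to bind recurs in them. They cover 300 bases around the start in GRCh38.p14, from RefSeq, on the gene's strand, with matches to CATGTG on either strand (CACATG on the other) in capitals. The regions are TYRP1 at chr9:12693135-12693434 (plus strand), EDNRB at chr13:77919633-77919932 (minus strand) and BCL2A1 at chr15:79971147-79971446 (minus strand).
TYRP1: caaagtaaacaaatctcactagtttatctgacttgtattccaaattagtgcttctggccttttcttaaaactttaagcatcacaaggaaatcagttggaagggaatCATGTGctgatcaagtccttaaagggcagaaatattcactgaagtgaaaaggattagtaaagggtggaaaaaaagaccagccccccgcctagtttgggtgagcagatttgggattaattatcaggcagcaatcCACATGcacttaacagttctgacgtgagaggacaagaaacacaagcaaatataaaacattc
EDNRB: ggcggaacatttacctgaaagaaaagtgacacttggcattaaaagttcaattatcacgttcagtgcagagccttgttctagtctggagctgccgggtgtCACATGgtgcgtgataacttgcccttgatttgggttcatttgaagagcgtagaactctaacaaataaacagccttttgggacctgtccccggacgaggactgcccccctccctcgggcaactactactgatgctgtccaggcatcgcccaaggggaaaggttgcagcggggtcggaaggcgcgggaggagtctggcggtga
BCL2A1: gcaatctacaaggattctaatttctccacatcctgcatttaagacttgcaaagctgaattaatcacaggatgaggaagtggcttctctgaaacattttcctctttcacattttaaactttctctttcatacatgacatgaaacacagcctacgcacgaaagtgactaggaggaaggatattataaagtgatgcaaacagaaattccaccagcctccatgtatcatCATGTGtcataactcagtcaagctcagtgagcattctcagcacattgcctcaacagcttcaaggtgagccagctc

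The matches begin at -144 and -11 from the start site in TYRP1, at -151 in EDNRB and at -25 in BCL2A1. Of the 15 measured genes of the list, 12 had a region in the table, and 8 of those held the word (BCL2A1, EDNRB, GPNMB, GPR143, MC1R, OCA2, TYR and TYRP1). The list was made of genes of the programme that MITF drives, so this share describes the list and not the interaction. Of the 5 called members 4 had a region, and 3 of those held the word. The word occurred in 8.27% of the regions of the 10560 measured genes with an entry, in 9.23% of 65 genes above additivity, in 14.8% of 54 below it, and in 11.2% of all 27305 regions. Of the 8 members with the word, BCL2A1, EDNRB and TYRP1 were called and the other 5 were not. MLPH was called and held CACGTG (9.02% of measured genes) and not CATGTG. A match is a stretch of letters and says nothing about binding in these cells.

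TP53INP2, a nuclear protein that moves to autophagosomes and supports autophagy, had the largest departure of the genes with no dim mean. It read 6.12, 6.09 and 5.91 in DMSO, 8.35, 8.47 and 8.21 in DT, 6.66, 6.48 and 6.66 in E, and 7.24, 7.21 and 7.02 in DTE. The 4 groups did not overlap, and the DTE arrays stood below the DT arrays although entinostat alone raised the gene (0.56, adjusted p = 0.0033). The interaction was -1.74 (SE 0.17, adjusted p = 0.00011), a 3.35-fold departure.

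The start site region of TP53INP2 (chr20:34704094-34704393, plus strand, GRCh38.p14, RefSeq) is shown because it holds TGACGTCA, the cyclic AMP response element, beginning at -61. The word was present in 2.63% of measured genes, 3.08% of those above additivity and 1.85% of those below. Capitals also mark GGGCGG at -76 and its reverse CCGCCC at -103, a word known from SP1 sites that 60.5% of measured genes hold.
TP53INP2: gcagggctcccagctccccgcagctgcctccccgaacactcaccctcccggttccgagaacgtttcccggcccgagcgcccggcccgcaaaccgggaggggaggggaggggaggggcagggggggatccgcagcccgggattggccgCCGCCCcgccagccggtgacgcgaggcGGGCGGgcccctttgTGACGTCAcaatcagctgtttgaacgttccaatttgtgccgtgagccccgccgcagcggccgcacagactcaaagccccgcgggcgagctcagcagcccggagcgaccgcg

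Of the other words searched on both strands, TGANTCA (AP-1) occurred in 5.89% of measured genes, 9.23% of those above additivity and 11.1% of those below. CCGGAAG (ETS) occurred in 15% of measured genes, in 3 of the 65 above additivity and in 1 of the 54 below. No test was made on these shares.

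Other genes that dabrafenib and trametinib raised and entinostat held back came from several functions. ASPA, aspartoacylase, read 4.48, 4.40 and 4.49 in DMSO, 7.50, 7.81 and 7.30 in DT, 5.31, 4.65 and 5.0 in E, and 6.31, 6.30 and 7.02 in DTE, and its interaction was -1.52 (SE 0.27, adjusted p = 0.00787). RAP1GAP, which switches off the small GTPase RAP1, read 4.07, 4.15 and 3.92 in DMSO, 5.73, 5.97 and 5.58 in DT, 4.38, 4.58 and 4.49 in E, and 4.58, 4.90 and 4.64 in DTE, and its interaction was -1.49 (SE 0.19, adjusted p = 0.00061). DTE arrays lay below all DT arrays in both genes, and for RAP1GAP they touched the E range.

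CTSK, a lysosomal cysteine protease, read 5.84, 5.74 and 6.27 in DMSO, 7.16, 7.49 and 7.18 in DT, 6.03, 6.12 and 6.11 in E, and 6.18, 6.10 and 6.26 in DTE. Its rise of 1.33 was thus absent from the DTE arrays, which overlapped those of DMSO and E, with an interaction of -1.23 (SE 0.20, adjusted p = 0.00376). CTSK was the called member among 17 measured genes of lysosome and autophagy, whose median was -0.18 (0.473% of all genes were called below additivity). PER3, a clock repressor chosen after its values were seen, read 5.35, 5.31 and 5.28 in DMSO, 6.32, 6.28 and 6.20 in DT, 5.51, 5.32 and 5.30 in E, and 5.10, 5.25 and 5.26 in DTE. The rise of PER3 in DT was likewise not seen in DTE, and its interaction was -1.12 (SE 0.16, adjusted p = 0.00159). LONRF1, a RING finger protein, had an interaction of -1.26 (SE 0.22, adjusted p = 0.00787) of the same form.

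A second form was a rise under entinostat that dabrafenib and trametinib held back. UNC13A, which primes synaptic vesicles for release, read 3.64, 3.91 and 3.85 in DMSO, 3.64, 3.80 and 3.67 in DT, 5.24, 5.70 and 5.49 in E, and 3.86, 4.04 and 3.78 in DTE. E stood apart and the other groups overlapped, so that the entinostat effect of 1.67 alone was 0.19 in inhibited cells (adjusted p = 0.385), with an interaction of -1.48 (SE 0.19, adjusted p = 0.00061). EPAS1, the hypoxia factor HIF-2 alpha, was chosen after its values were seen. It read 6.0, 6.13 and 6.14 in DMSO, 6.73, 6.93 and 6.74 in DT, 7.36, 7.13 and 7.28 in E, and 6.64, 6.97 and 6.88 in DTE, with DT and DTE overlapping and E highest, and its interaction was -1.13 (SE 0.17, adjusted p = 0.00259).

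IL24, a cytokine of the IL10 family, read 4.47, 3.55 and 3.78 in DMSO, 3.10, 3.23 and 2.81 in DT, 7.76, 7.62 and 7.82 in E, and 5.64, 5.38 and 5.57 in DTE. Its entinostat effect was 3.80 alone and 2.48 in inhibited cells, both called, and its interaction of -1.32 (SE 0.26, adjusted p = 0.0146) was not called after quantile normalization (adjusted p = 0.0531). IL24 was the called member among 21 measured cytokines and chemokines, whose median was 0.06 (0.473% of all genes were called below additivity).

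CD24, a surface glycoprotein with near-identical pseudogene copies that its probes may not tell apart, rose under every treatment. It read 3.91, 3.70 and 4.20 in DMSO, 6.70, 7.0 and 6.62 in DT, 7.27, 7.40 and 7.48 in E, and 8.56, 8.87 and 8.93 in DTE. The DTE arrays were the highest and yet below the additive expectation of 10.22, with an interaction of -1.44 (SE 0.21, adjusted p = 0.00183). On the linear scale the sign turned, since DTE exceeded DT plus E minus DMSO by 182 intensity units (adjusted p = 0.00646). The call on the log2 scale was lost with 16 added to each intensity (adjusted p = 0.0749).

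ERK output, the genes known to follow ERK signalling, had values on both sides of 0 and calls only above it. Of 20 measured genes, 3 were called above additivity (IER3, EPHA4 and SPRY2, against 0.562% of all genes) and 0 below (0.473%). The values ran from -0.88 to 1.29 with a median of 0.13, 11 were above 0 and 9 below, and 9 of the 20 intervals lay inside 2-fold, against 93.3% of all genes. Quantile normalization moved the median to 0.02, and adding 16 to each intensity moved it to -0.02. All 20 were called lower in DTE than in E (22.4% of all genes), and 19 lower in DT than in DMSO (24.1%).

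SPRY2, a feedback inhibitor of receptor signalling, read 7.82, 7.95 and 7.96 in DMSO, 3.50, 3.82 and 3.68 in DT, 7.85, 7.94 and 7.90 in E, and 4.48, 4.57 and 4.51 in DTE. DTE lay above DT without overlap but 3.39 below DMSO (difference -3.39), and the interaction was 0.87 (SE 0.16, adjusted p = 0.0108, or 0.699 on the linear scale). EPHA4, an ephrin receptor kinase, had an interaction of 1.25 (SE 0.21, adjusted p = 0.00631, or 0.125 on the linear scale). It was also the called member among 22 measured receptor tyrosine kinases, whose median was 0.03 (0.562% of all genes were called above additivity).

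IER3, an immediate early gene of stress survival, read 10.04, 10.11 and 9.95 in DMSO, 7.16, 7.16 and 7.18 in DT, 10.66, 10.61 and 10.85 in E, and 9.16, 9.05 and 9.17 in DTE. Its interaction of 1.29 (SE 0.16, adjusted p = 0.0006) rested on the brighter of its 2 probe sets. The dimmer probe set gave -0.14 (SE 0.22, adjusted p = 0.891 over all probe sets), and the mean of both gave 0.58 (adjusted p = 0.105). On the linear scale the sign turned (-207, adjusted p = 0.497). The 2 probe sets disagree, and which of them follows the gene was not tested.

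Among the ERK output genes that were not called was DUSP6, a phosphatase of ERK. It read 8.64, 8.96 and 8.56 in DMSO, 4.05, 4.24 and 4.45 in DT, 9.19, 9.12 and 9.41 in E, and 4.25, 3.33 and 4.07 in DTE. The interaction of DUSP6 was -0.88 (95% interval -1.45 to -0.32, adjusted p = 0.139), and its DT and DTE arrays overlapped. ETV4, an ETS factor, stood at 0.00 (-0.41 to 0.40). CCND1, cyclin D1, stood at 0.73 (0.30 to 1.15, adjusted p = 0.102), FOSL1, an AP-1 subunit, at 0.59 (0.24 to 0.94, adjusted p = 0.108), and MYC at 0.32 (-0.01 to 0.66, adjusted p = 0.458). CCND1 was called after the filter on dim genes (adjusted p = 0.043), with a trended and robust fit (0.0462) and without DT array 3 (0.90, adjusted p = 0.0286). FOSL1 was called with 16 added to each intensity (0.0198) and on the linear scale (0.00017), and DUSP6 on the linear scale (0.0462). SPRY4, a feedback inhibitor, stood at -0.53 (adjusted p = 0.401), EGR1, an immediate early factor, at -0.61 (adjusted p = 0.244), and ETV5, dim in DT and DTE, at -0.04. CXCL8, a chemokine dim in DT, stood at 0.57 (adjusted p = 0.174). On the linear scale it was called with the opposite sign (-307, adjusted p = 6.4e-06).

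In the BCL2 family, which decides on mitochondrial apoptosis, 1 of 18 measured genes was called above additivity (0.562% of all genes) and 1 below (0.473%), with a median of -0.10. PMAIP1, the BH3-only protein NOXA, read 7.10, 7.24 and 7.15 in DMSO, 4.55, 4.35 and 4.51 in DT, 7.28, 7.47 and 7.44 in E, and 5.75, 5.79 and 5.92 in DTE. The DTE arrays lay above DT and below DMSO and E without overlap, and the interaction was 1.11 (SE 0.16, adjusted p = 0.00183, or 0.783 on the linear scale). The other called member was BCL2A1, described with the pigment genes. The pro-apoptotic BCL2L11 (BIM) stood at -0.24 (-0.72 to 0.25) and BMF at -0.16 (-0.54 to 0.22). The anti-apoptotic MCL1 stood at 0.19 (-0.17 to 0.56).

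YAP target genes had the highest list median, 0.34, with FJX1 and CRIM1 called above additivity among 12 measured (0.562% of all genes were). FJX1, a secreted homologue of four-jointed, read 7.47, 7.53 and 7.55 in DMSO, 5.72, 6.11 and 5.89 in DT, 7.08, 7.43 and 7.25 in E, and 6.81, 6.93 and 7.07 in DTE. Its interaction was 1.29 (SE 0.19, adjusted p = 0.00179), and its DTE arrays lay above all DT arrays and below all others. The call of CRIM1 (0.83, adjusted p = 0.0167) was lost without DT array 1 (adjusted p = 0.0585) or DT array 3 (0.0591). The YAP targets ANKRD1 (0.67, adjusted p = 0.169) and CCN2 (0.39, adjusted p = 0.291) were not called, although entinostat raised both with and without the kinase inhibitors. ANKRD1 was called after quantile normalization (0.89, adjusted p = 0.0289) and CCN2 with 16 added to each intensity (0.37, adjusted p = 0.0306). Of 12 measured genes of dedifferentiated melanoma, such as AXL (0.30, adjusted p = 0.608) and NGFR (-0.29, adjusted p = 0.581), 0 were called and 10 were above 0, with a median of 0.25. Of all genes 1.04% were called. NGFR was called on the linear scale (adjusted p = 0.0221).

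**Figure D5:**
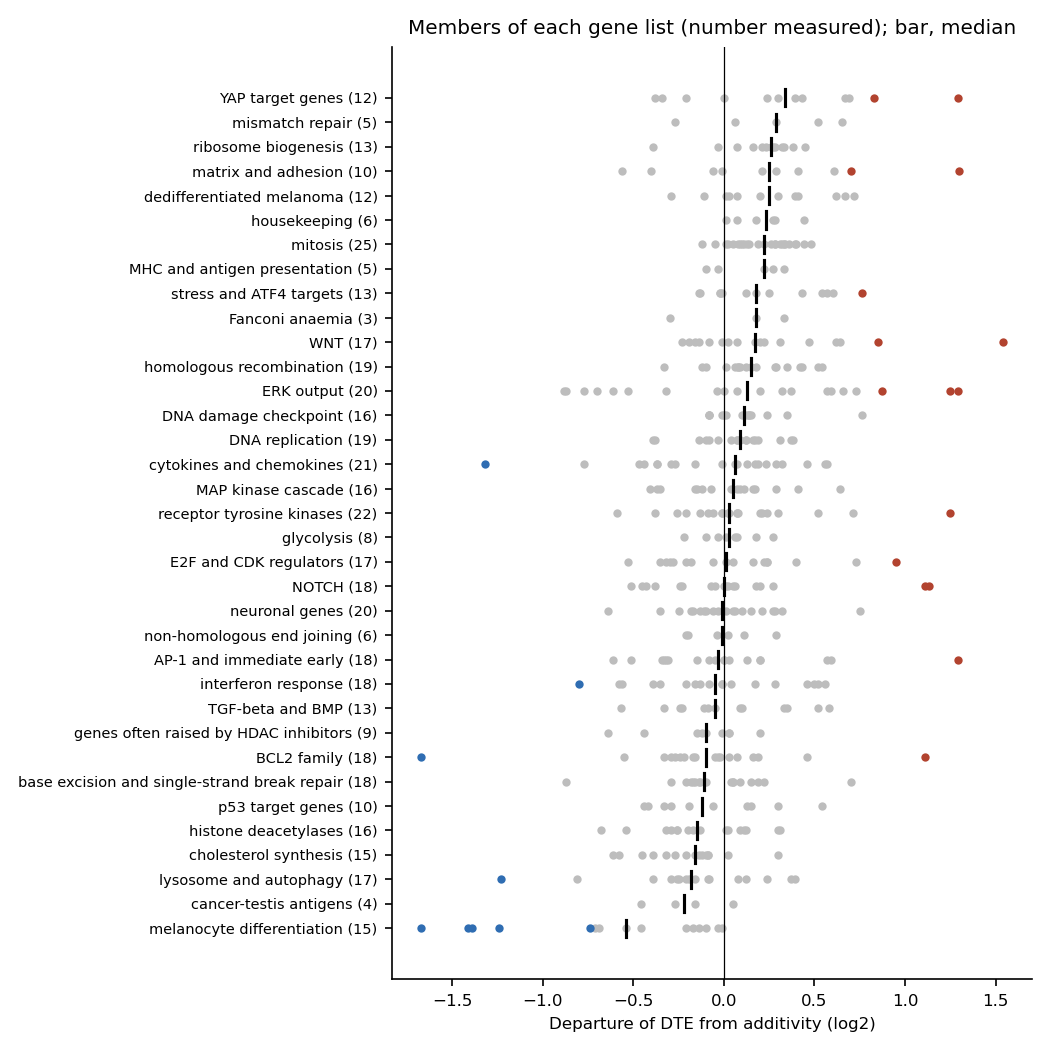
Interaction (log2, x axis) of the measured members of the 35 gene lists; black bars are list medians, red points genes called above additivity, blue points genes called below, and grey points genes not called. List medians run from -0.54 for melanocyte differentiation to 0.34 for YAP target genes, and the 6 housekeeping genes have a median of 0.23.

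Over the genome maintenance lists, which cover homologous recombination, the Fanconi anaemia pathway, mismatch, base excision and end-joining repair and the damage checkpoint, 66 genes were measured and 0 were called by limma's test, with 8 at an unadjusted p under 0.05 (1683 of all 14580 genes). Of all genes 1.04% were called. The 95% interval lay inside a 2-fold departure for 62 of the 66, near the 93.3% of all genes, the exceptions being CHEK1, NEIL1, NEIL3 and PMS1. Their median was 0.09, and 44 were above 0. In the combination 35 of the 66 were called lower than DMSO and 1 higher, against 22.5% and 9.64% of all genes (32.2% either way).

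Of 19 homologous recombination genes 16 were above 0, with a median of 0.15, and 23 of 25 mitosis genes were above 0, with a median of 0.22. The 6 housekeeping genes, 5 of which were called lower in DT than in DMSO, were also all above 0 with a median of 0.23, and the median over genes in 10 bins of level ran from -0.072 to 0.08. All 19 intervals of homologous recombination, all 19 of DNA replication and all 25 of mitosis lay inside 2-fold. The median of DT minus DMSO in these lists was -0.5, -0.47 and -0.47. A 2-fold range is wide beside such changes, so an interval inside it does not show additivity.

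CHEK1, the checkpoint kinase CHK1, came nearest to a call among the repair and checkpoint genes that were named whatever their result. It read 7.58, 7.63 and 7.62 in DMSO, 6.62, 6.74 and 6.57 in DT, 6.76, 6.87 and 6.65 in E, and 6.29, 6.54 and 6.83 in DTE. Both separate treatments lowered it (-0.97 and -0.85), while the DT, E and DTE arrays overlapped, all above the additive expectation of 5.79. Its interaction of 0.76 (95% interval 0.37 to 1.16) had an adjusted p of 0.0558. It was called after quantile normalization (0.70, adjusted p = 0.0234), after median centring (0.79, adjusted p = 0.0255) and without DTE array 1 (0.89, adjusted p = 0.0199). It was also called with the filter on dim genes (0.0226), with 16 added to each intensity (0.0423), with a trended and robust fit (0.0297) and on the linear scale (0.00348).

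The drug targets that were analysed showed no called interaction, and BRAF was not among the genes analysed here. HDAC1 stood at 0.01 (-0.34 to 0.37), HDAC3 at 0.12 (-0.24 to 0.48) and MAP2K1, which encodes MEK1, at 0.07 (-0.28 to 0.42). None of 16 histone deacetylases, 16 genes of the MAP kinase cascade or 9 genes often raised by HDAC inhibitors was called, and none of the cholesterol synthesis (15), ribosome biogenesis (13) or glycolysis (8) genes. CDK6, a kinase that drives entry into the cell cycle, was the called member of 17 E2F and CDK regulators (0.95, adjusted p = 0.0335), while E2F1 stood at -0.53 (adjusted p = 0.288). Over all genes 1.04% were called either way and 0.562% above additivity. Of the 35 lists, 21 held no called gene, and 129 of the 151 called genes belonged to none of the lists.

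Some list calls were less firm than others when single arrays were left out. SFRP1 (0.85, adjusted p = 0.0478) kept its call without DT array 2 but without no other array, with an adjusted p of up to 0.126, and lost it with 16 added to each intensity (0.0744), over all probe sets (0.0591) and on the linear scale (0.965). OASL, an interferon-induced gene (-0.80, adjusted p = 0.0403), kept it without E array 2 or DTE array 2, reached 0.112 otherwise, and lost it after quantile normalization (0.0563) and on the linear scale (0.0566). MMP16, a membrane metalloprotease (0.70, adjusted p = 0.0341), kept it without DT array 2 or DTE array 1, reached 0.0927, and lost it on the linear scale (0.289). PMEL kept it without DT array 1, E array 2 or DTE array 1, and reached 0.107. ASNS, asparagine synthetase (0.76, adjusted p = 0.0277), kept it without DT array 2, E array 1, E array 2 or DTE array 1, and reached 0.0905. CDK6 kept it without DMSO array 3, DT array 2, E array 2 or DTE array 1, reached 0.0987, and lost it with 16 added (0.0595) and on the linear scale (0.383).

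Large departures were also seen in dim genes, whose size is uncertain. At least 1 group mean was dim for 10 of the 82 genes above additivity and 13 of the 69 below, against 4082 of all 14580 genes. LRP2, the endocytic receptor megalin, read 2.67, 2.85 and 2.65 in DMSO, 2.64, 2.54 and 2.53 in DT, 4.37, 4.35 and 4.49 in E, and 5.77, 5.66 and 5.75 in DTE, so that it was dim without entinostat and highest in DTE, with an interaction of 1.48 (SE 0.16, adjusted p = 0.0002). PMP2, a lipid-binding protein of myelin, read 2.54, 3.14 and 2.66 in DMSO, 2.89, 2.81 and 3.15 in DT, 3.24, 3.31 and 3.08 in E, and 5.05, 4.58 and 5.11 in DTE, with an interaction of 1.53 (SE 0.24, adjusted p = 0.00259). In PMP2 the combination stood apart from all other arrays, and neither separate effect was called.

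Below additivity, GALNT3, an enzyme that starts O-glycosylation, read 3.15, 3.97 and 3.23 in DMSO, 5.58, 6.08 and 5.45 in DT, 2.82, 2.91 and 2.71 in E, and 3.50, 3.55 and 3.86 in DTE. Its rise in DT was largely missing from DTE, whose arrays overlapped those of DMSO, with an interaction of -1.43 (SE 0.27, adjusted p = 0.0132). TMEM156 (-1.62, adjusted p = 0.00335) and PRR9 (-1.54, adjusted p = 0.00678) were raised by entinostat alone and stood at 0.27 and -0.04 for entinostat on top of dabrafenib and trametinib, with dim means in both DT and DTE, and the call of PRR9 was lost on the linear scale (0.0566).

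Of the 82 genes above additivity 78 were protein coding, and of the 69 below 64, in a table where 11717 of 14580 genes were. The counts moved when single arrays were left out. The 82 above additivity became 46 to 49 without DT array 1 (46), DT array 3 (47), DMSO array 2 (49) or E array 3 (49), and 54 without DTE array 2 or DTE array 3. The 69 below became 36 without DMSO array 3, 43 without DMSO array 1, DT array 2 or E array 1, 44 without E array 3 and 46 without DTE array 2. Not every omission lowered the counts. Without DTE array 1, 108 genes were called above and 69 below, and without DT array 2, 81 were called above. A call under every one of the 12 omissions was found for 41 of the 82 and 32 of the 69, and no gene of the 151 was called in the opposite direction under any log2-scale alternative. Additivity itself depends on the scale, and on linear intensity 36 of the 82 and 47 of the 69 were called. There 63 genes in all were called above additivity and 127 below, and with 16 added to each intensity 83 and 122.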

How the data were processed

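Each deposited value is the intensity of 1 probe set on 1 array, on a linear scale from 1.88 to 8728. RMA and the Transcriptome Analysis Console were used, per the submitters' processing notes, with no versions. The array, any further scaling and a genome build are not given in the sources used here. An ERCC mix was added before extraction, per the labels' protocols, and 0 probe sets carried an ERCC name.

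Of 29396 probe sets 14748 had 1 gene symbol and 14648 had none. Symbols were updated by NCBI gene identifier. The brightest probe set represented each of 156 genes with several, giving 14580 genes. Groups followed the treatment labels, and every array was used.

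Intensities were taken to log2 without further normalization, and limma 3.58.1 in R 4.3.3 fitted 4 group means over 12 arrays (8 residual degrees of freedom, default eBayes). P-values were adjusted by Benjamini-Hochberg over all genes. Levels are log2 intensities, intervals are 95% intervals of the moderated contrast, and the number of arrays limits their precision. A group mean is dim below that group's lower quartile (2.98 in DMSO, 2.91 in DT, 3.12 in E, 2.99 in DTE), since no background measure was used. The test was tried on simulated data.

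Genes to name were the 10 largest called interactions each way without a dim mean, 4 each way with one, at most 2 called genes per list and direction, and 35 genes whatever their result, 31 of them measured (the remainder was not analysed here). Some of the genes that this choice gives, such as NPY6R, are not printed. SOX2, AHR, TBX3, EPAS1, PER3, STK32A, TYRP1, PMEL, MLANA and others were chosen after their values were seen. Members, lists and alternatives were chosen with earlier results of these data known. The alternatives were other normalizations, a filter on dim genes, an offset of 16, other probe set choices, another eBayes setting, a replicate block, the linear scale and omission of each array.

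Promoter regions came from RefSeq (GRCh38.p14).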

Additional observations from a re-analysis of the deposited data

Results flagged for a closer look

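For 10 named genes the entinostat effect was called both with and without dabrafenib and trametinib and had opposite signs, the interaction being the test of the difference. Entinostat lowered SMAGP (interaction 1.55), CTLA4 (1.55), SH3TC2 (1.53), SOX2 (1.27), HEY1 (1.13) and TBX3 (1.06) alone and raised them with the kinase inhibitors. It raised TP53INP2 (-1.74), RAP1GAP (-1.49), MLPH (-1.39) and STK32A, a serine/threonine kinase (-1.14), alone and lowered them with the kinase inhibitors.

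For 3 named genes the dabrafenib and trametinib effect had opposite called signs with and without entinostat. RGCC, a regulator of the cell cycle (interaction 1.33), was lowered alone (-0.53) and raised with entinostat (0.80), with a dim mean in DT. EPAS1 (-1.13) and MLPH (-1.39) were raised alone (0.71 and 0.55) and lowered with entinostat (-0.42 and -0.83).

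Outside the named genes, 110 of the 14648 probe sets with no gene symbol were called for the interaction (0.751%), 54 above additivity and 56 below.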

How the results depend on the processing

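The counts of genes above and below additivity (82 and 69) were 174 and 140 after quantile normalization, 160 and 107 after median centring, 136 and 124 after the filter on dim genes, and 136 and 106 with a trended and robust fit. They were 83 and 122 with 16 added to each intensity, 123 and 117 over all probe sets, and 63 and 127 on the linear scale, so that the balance turned with 16 added and on the linear scale. The counts of 2-fold departures (40 and 33) were 10 and 11 with 16 added and 72 and 66 over all probe sets. Leaving out each array in turn gave 46 to 108 above, 36 to 69 below, and 32 to 53 and 24 to 38 for 2-fold departures. With the replicate block the counts were 102 and 89. Deviations from the group means of arrays with the same number correlated at -0.10 to 0.17 (median 0.05, 16 of 18 above 0). For different numbers they correlated at -0.17 to 0.17 (median -0.03, 13 of 36 above 0). Array 2 had the highest median level in each group (4.798 in DMSO, 4.603 in DT, 4.901 in E, 4.689 in DTE). Not every pair reached 0.1 and not every array correlated best with its own number. Whether the numbers mark paired arrays was not settled. With every call at an adjusted p under 0.01, entinostat was called with but not without the kinase inhibitors for 16 genes above additivity (41 at 0.05) and 15 below (28). On the linear scale the sign turned for IER3 (-207, adjusted p = 0.497 in limma's test) and ADAM19 (-43.8, adjusted p = 0.343), which were not called there. It also turned for CXCL8 (-307, adjusted p = 6.4e-06) and CD24 (182, adjusted p = 0.00646), which were called there. Under the log2-scale alternatives 0 of the 151 called genes changed sign, and 37 of the 82 and 26 of the 69 were called under all 20 log2-scale alternatives. The causes of these shifts were not tested.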
